A study of Mus musculus with 8 samples.

Results

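The integrin and laminin chain genes are 35 protein-coding genes of the 55421 rows in the deposited table, 16 for integrin alpha chains, 8 for integrin beta chains and 5, 3 and 3 for laminin alpha, beta and gamma chains. Their symbols are Itga, Itgb, Lama, Lamb or Lamc followed by a number alone, or Itgav, Itgae, Itgal, Itgam or Itgax; Itga2b, the platelet alpha chain gene, falls outside that pattern and is described apart. They were taken by a symbol pattern and no cut-off on measured levels was used. The pattern was chosen with earlier results of these data known. The table holds RNA-seq levels in TPM, a transcript level scaled by gene length so that each library sums to 1000000. The libraries came from the vagal region of mice at embryonic day 9.5, the stretch of the body beside somites 1 to 7 that holds hindbrain and anterior spinal cord, neural crest, somites and foregut. In 4 libraries the embryos were homozygous mutants, Rdh10(trex/trex), called trex here, and in 4 they were wild type, called wt. Rdh10 makes retinaldehyde, the precursor of retinoic acid, and the trex allele is carried by every cell of the mutant. The labels name no treatment. Libraries are numbered 1 to 4 within a group by the replicate label. Nothing in the labels tells whether a library is 1 embryo or a pool, or which libraries share a litter, so the p-values below measure the spread between these libraries, which may be partly technical.

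Laminins are cross-shaped proteins of the basement membrane, the sheet of matrix under epithelia and around the neural tube, somites and vessels. Each is built from an alpha, a beta and a gamma chain, and the alpha chain carries most of the contacts with cells. Integrins are the cell-surface receptors that bind laminins, fibronectin, collagens and other matrix proteins; each is a pair of an alpha and a beta chain, so the level of the less abundant chain can limit the receptor. Migrating neural crest cells move over fibronectin and laminin and use integrins for it.

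The libraries held between 20928981 and 23648646 recovered reads. Markers of tissues that the labelled region holds were present in both groups, which does not test the level along the body. The means of trex and of wt were 183 and 209 TPM for the neural tube gene Sox2 and 50.1 and 35.4 TPM for the neural crest gene Sox10. For the somite gene Meox1 they were 334 and 283 TPM. Rdh10 itself averaged 76.0 ± 20.2 TPM in the mutants and 38.8 ± 2.20 TPM in the wild types (SD over 4 libraries per group, as for all means below), and because the mutant allele need not lower the transcript, its level is no check of the labels. Y-linked genes were expressed in wt libraries 2 and 3, with sums of 162 and 158 TPM, while no other library passed 0.0662 TPM, so all trex libraries fell on 1 side of that split. Cardiomyocyte genes varied widely within both groups, between 126 and 1369 TPM summed in trex and between 97.2 and 1329 TPM in wt. Among trex libraries, library 1 had the highest summed level of low oxygen genes and library 2 the lowest.

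Of the 35 genes, 26 had a mean of at least 1 TPM over the 8 libraries and were tested, and 9 did not. In trex, 5 of the 26 were called higher and 2 lower at an adjusted p below 0.05 in limma, with adjustment over all 15717 genes tested. Genes that rose included Lama5, Lamc1, Itga5 and Itgb5, and those that fell were Lamc3 and Itgb8. That is 26.9% of the tested chain genes, where 8.71% of all tested genes were called. By direction, 19.2% were called higher and 7.69% lower, against 4.94% and 3.77% of all tested genes. The trex and wt libraries did not overlap for 8 of the 26, 6 with trex above wt (23.1%, against 12.9% of all tested genes) and 2 with trex below wt (7.69%, against 8.95%); in either direction all tested genes gave 21.8%. The median log2 difference, trex minus wt on the log2(TPM + 1) scale, was 0.31 over the 26 genes and 0.04 over all tested genes, and 19 of the 26 differences were above 0, or 73.1% against 56.7% of all tested genes. Lama3 and Lamb3 passed the level filter only through their trex values, which fixed their direction, and were not called; without them 17 of 24 differences were above 0 and the median was 0.28. No list test was made of these counts, and the genes were chosen with earlier results of these data known. In bulk tissue, fewer cells of a type and less RNA per cell cannot be told apart.

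How many chain genes were called higher depended on which libraries were included. The count was 6 without trex library 1, 12 without trex library 2, 1 without trex library 3, and 0 without trex library 4 or without any 1 of the wt libraries. The count called lower was 2 in those fits except for 3 without trex library 1 and 0 without wt library 2. In the fits with 0 higher calls, limma gave between 9 and 15 of the 26 chain genes an unadjusted p below 0.05, and between 21.1% and 24.5% of all tested genes. Calls over all genes moved as well, to between 201 (without wt library 2) and 2911 (without trex library 2), against 1369 with all 8. With sex as a covariate, or in the 6 libraries low in Y-linked transcripts, no chain gene was called and 39 and 8 genes of all tested were; 10 and 9 chain genes, and 16.8% and 13.5% of all tested genes, had an unadjusted p below 0.05. Both fits gave log2 differences of 0.99 for Lama5, 0.50 for Lamc1, 0.38 for Itga5, 0.48 for Itgb5, -1.49 for Lamc3 and -1.41 for Itgb8. These estimates are the same by construction, because the libraries high in Y-linked transcripts are all wt, so 1 fit is no check of the other. The 7 called genes had the same direction in every alternative that tested them. In fits that leave out libraries this was fixed beforehand, because the groups of these 7 genes do not overlap. With quantile normalization, 633 of all tested genes were called higher and 739 lower, against 777 and 592 without it, and the same 7 chain genes were called.

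**Figure D1:**
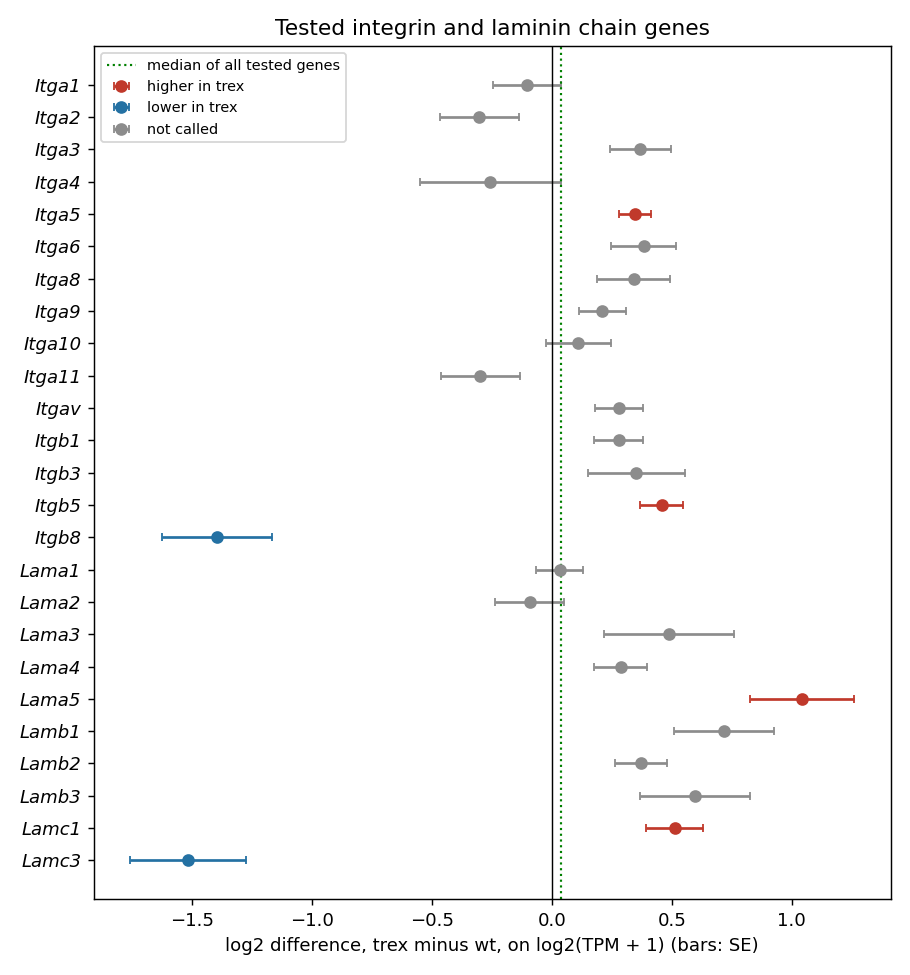
Log2 difference, trex minus wt, of 25 tested chain genes on the log2(TPM + 1) scale (points) with its standard error (bars), 4 libraries per group. Red points were called higher, blue points lower and grey points were not called; the dotted line is the median of all tested genes, 0.04. Itgb8 and Lamc3 lie far to the left, at -1.40 and -1.52, and Lama5 farthest to the right, at 1.04.

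RefSeq promoters (GRCm38.p6, the assembly of mm10) were at hand for 22 of the 35 genes, 3 of them among those called higher. That of Itgb8, called lower, was also at hand and is not printed. The 250 bases before the start of the 3 genes called higher are printed 5′ to 3′ on the gene's strand, to show what these regions hold. Every match to the motifs named below is in capitals. Itga5 lies at chr15:103366792-103367041 (minus strand), Itgb5 at chr16:33829415-33829664 (plus strand) and Lama5 at chr2:180225860-180226109 (minus strand).
Itga5: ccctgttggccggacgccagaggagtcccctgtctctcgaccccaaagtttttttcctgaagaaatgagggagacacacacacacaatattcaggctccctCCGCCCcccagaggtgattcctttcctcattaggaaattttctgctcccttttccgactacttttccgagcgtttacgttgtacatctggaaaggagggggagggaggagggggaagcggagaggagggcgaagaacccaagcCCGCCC
Itgb5: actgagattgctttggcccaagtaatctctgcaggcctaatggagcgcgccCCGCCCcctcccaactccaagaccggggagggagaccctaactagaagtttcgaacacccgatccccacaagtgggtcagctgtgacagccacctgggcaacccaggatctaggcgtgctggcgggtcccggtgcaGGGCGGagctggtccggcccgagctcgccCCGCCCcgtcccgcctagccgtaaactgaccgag
Lama5: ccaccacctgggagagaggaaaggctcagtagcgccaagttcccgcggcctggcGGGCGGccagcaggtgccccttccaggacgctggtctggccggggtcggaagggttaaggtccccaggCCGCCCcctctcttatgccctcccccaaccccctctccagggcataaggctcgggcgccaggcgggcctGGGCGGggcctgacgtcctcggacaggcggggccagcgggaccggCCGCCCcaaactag

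All matches in these 3 windows were to the GC box, GGGCGG, read on either strand (its reverse complement is CCGCCC), with 2 in Itga5, 3 in Itgb5 and 4 in Lama5. The window of Itgb8 held 0 GC boxes and 1 CCAAT box. A GC box was present in 8 of the 22 chain gene promoters, or 36.4%, and in 32.9% of 27025 promoters of all genes. The CCAAT box (CCAAT) was in 13.6% of the 22 and 34.5% of all. TATAAA was in 0 of the 22 and 13% of all, the hypoxia response core ACGTG in 1 of the 22 and 16.6% of all, and the nuclear receptor element AGGTCA in 0 of the 22 and 13.8% of all. Both strands were searched, and these motifs do not contain one another. The median GC content was 58.6% in the 22 windows and 52.0% in all. These matches describe letters in a short window and show no binding.

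Lama5 was the laminin alpha chain gene that rose. It encodes the alpha chain of laminins found in most basement membranes of later embryos and adults (ENSMUSG00000015647, chromosome 2, 180176373 to 180225859, mm10). It stood at 77.5, 34.6, 40.0 and 49.9 TPM in trex libraries 1 to 4, against 23.4, 19.995, 23.9 and 24.2 TPM in wt libraries 1 to 4. Every trex library lay above every wt library, and trex library 1 was far above the other mutants. The ratio of means was 2.21, and limma put the log2 difference at 1.04 ± 0.22 (SE; adjusted p = 0.0263). The exact permutation test, two-sided, gave 0.0286, the lowest p possible with 4 libraries a group. Every gene whose groups do not overlap reaches that value, among them Lamb1, which was not called. Leaving out trex library 4 or any wt library ended the call (adjusted p up to 0.0936), and without trex library 1 the difference was 0.82 with an adjusted p of 0.00942.

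Lama1, the main laminin alpha chain gene of the early embryo, was not called. Its levels were 45.5, 37.3, 39.4 and 38.1 TPM in trex and 45.1, 40.4, 38.0 and 33.5 TPM in wt. The log2 difference of 0.03 had a 95% interval from -0.19 to 0.26 (adjusted p = 0.843), and its sign changed with the scaling. Lama4, whose chain is typical of vessel walls, averaged 9.81 ± 1.34 TPM in trex and 7.82 ± 0.54 TPM in wt (adjusted p = 0.133). Lama2, the chain gene of muscle laminin, averaged 1.57 ± 0.21 TPM in trex and 1.75 ± 0.32 TPM in wt (adjusted p = 0.689). Lama3, the chain gene of epidermal laminin, had 2.84 TPM in trex library 1 and between 0.663 and 1.05 TPM in the other mutants, against 0.288 to 0.909 TPM in wt.

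The make-up of the alpha chain transcripts was compared within each library. Lama5 made up 55.9%, 42.2%, 43.5% and 49.4% of all laminin alpha chain TPM in trex and 29.8%, 28.2%, 33.2% and 35.6% in wt. Lama1 made up 32.8% to 45.5% in trex and 49.3% to 57.4% in wt. The Lama5 to Lama1 ratio was 0.927 to 1.70 in the mutants and 0.494 to 0.723 in the wild types, so the libraries of the 2 groups did not overlap on any of these shares. These shares are within-library values that no rescaling of a library can change, and they are given without a test. Total alpha chain TPM was 81.9 to 138.6 in trex and 67.9 to 78.7 in wt.

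None of the 3 laminin beta chain genes was called in limma. Lamb1, the beta chain gene of the common embryonic laminins, was 128, 56.9, 72.2 and 82.4 TPM in trex, against 46.4, 47.4, 49.9 and 52.4 TPM in wt. The groups did not overlap, the ratio of means was 1.73, and the adjusted p was 0.0653; it was 0.0339 without trex library 1 and 0.0163 without trex library 2. Lamb2, the beta chain gene of laminins at synapses and in kidney, averaged 39.0 ± 6.02 TPM in trex and 29.8 ± 2.51 TPM in wt. The lowest trex library of Lamb2, 33.1 TPM, lay just below the highest wt library, 33.2 TPM, and the adjusted p was 0.0674 (0.0249 without trex library 2). Lamb3, the beta chain gene of epidermal laminin, averaged 1.45 ± 0.71 TPM in trex and 0.575 ± 0.144 TPM in wt, which rests on 25 to 87 reads in trex and 13 to 26 in wt (adjusted p = 0.127).

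Among the gamma chain genes, Lamc1 rose and Lamc3 fell. Lamc1, which encodes the gamma chain of nearly all laminins (ENSMUSG00000026478, chromosome 1, 153218922 to 153332786), stood at 165, 114, 120 and 122 TPM in the mutants and 81.0, 88.1, 90.8 and 101 TPM in the wild types. All trex libraries lay above all wt libraries, and trex library 1 was well above the other mutants. The ratio of means was 1.44 and the log2 difference 0.51 ± 0.12 (adjusted p = 0.0358 in limma). The gene lies about 137 Mb from Rdh10 on the same chromosome. Leaving out trex library 3 or 4 or any wt library ended the call (adjusted p up to 0.110).

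Lamc3, a gamma chain gene of narrower expression than Lamc1, fell more than any other tested chain gene. It lies on chromosome 2, 31887291 to 31946539 (ENSMUSG00000026840). Its levels were 1.42, 4.22, 3.53 and 2.49 TPM in trex, against 11.6, 11.2, 8.94 and 7.80 TPM in wt. All mutants were below all wild types, and trex library 1 was the lowest. The wt mean was 3.39 times the trex mean. The log2 difference was -1.52 ± 0.24 (adjusted p = 0.0121 in limma), and the exact permutation p was 0.0286, which follows from the lack of overlap. Recovered reads were 50 to 148 in trex and 276 to 387 in wt. The call was lost only without wt library 2 (adjusted p = 0.0525) among the 8 fits that left out 1 library. An antisense gene shares 6.27% of its exonic bases, with mean levels of 0 TPM in trex and 0.0394 TPM in wt. As a share of gamma chain TPM, Lamc3 was 0.825% to 3.45% in trex and 6.92% to 12.1% in wt.

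**Figure D2:**
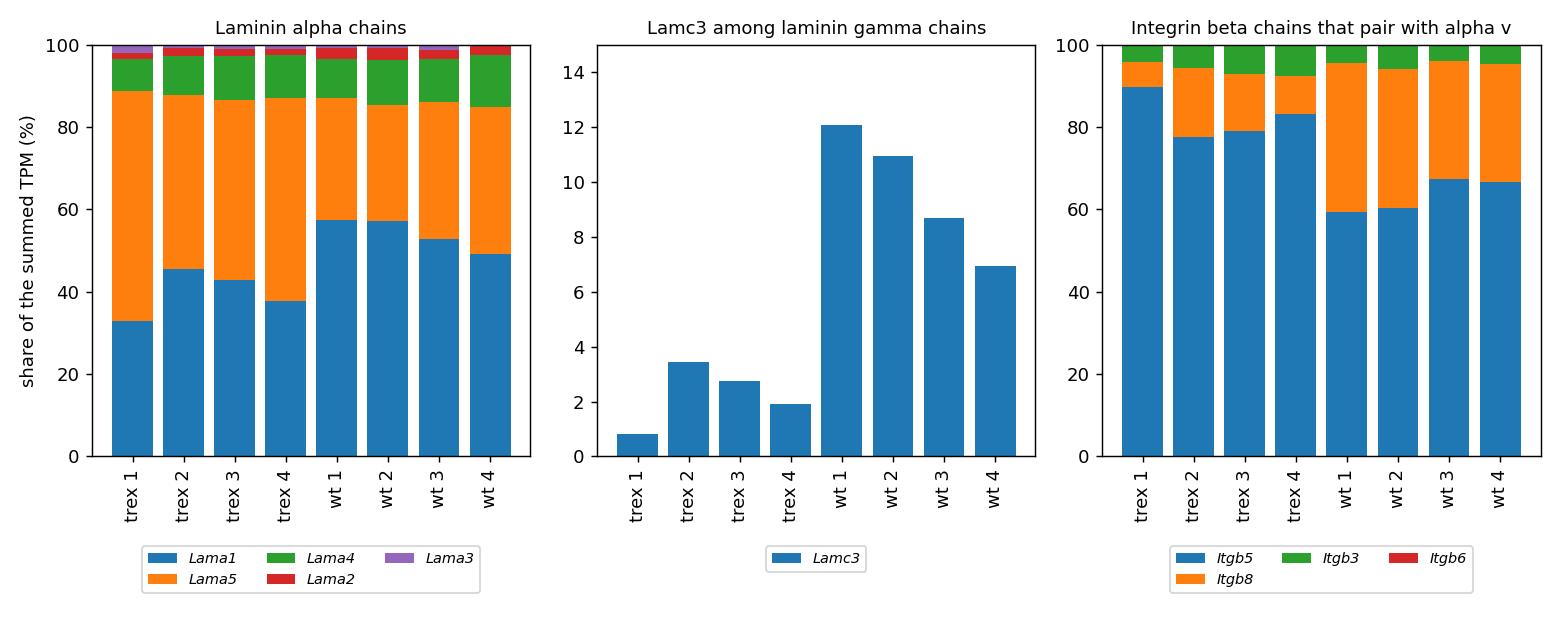
Share of the summed TPM (%) taken by chain genes within a class, 1 bar per library, with trex libraries 1 to 4 left of wt libraries 1 to 4. From left to right the panels show laminin alpha chains, Lamc3 among the laminin gamma chains (on an axis of its own) and 4 integrin beta chains. The integrin beta chains are Itgb3, Itgb5, Itgb6 and Itgb8, which pair with the alpha v chain alone or with few others. Itgb1 is not in this class. Lama5 takes 42.2% or more of its class in trex and 35.6% or less in wt, Lamc3 at most 3.45% in trex and at least 6.92% in wt, and Itgb8 at most 16.8% in trex and at least 28.5% in wt.

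Among the receptors, the beta chain genes held both a rise and a fall. Itgb8 encodes the beta chain of the alpha v receptor that activates latent TGF-beta and is known in mouse from neuroepithelium and its glia (ENSMUSG00000025321, chromosome 12, 119158022 to 119238802). It stood at 7.71, 17.1, 16.1 and 10.6 TPM in the mutants and 39.5, 38.3, 29.6 and 29.9 TPM in the wild types. No mutant reached the level of any wild type. The wt mean was 2.66 times the trex mean, and the log2 difference was -1.40 ± 0.23 (adjusted p = 0.0127 in limma, exact permutation p = 0.0286). Without wt library 2 the adjusted p was 0.0557, and leaving out any other single library kept it called. The wt libraries high in Y-linked transcripts, 2 and 3, held 38.3 and 29.6 TPM and those low in them, 1 and 4, held 39.5 and 29.9 TPM; in the 6 libraries low in these transcripts the difference was -1.41, with an adjusted p of 0.197.

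Itgb5, the beta chain gene of a vitronectin receptor, rose (ENSMUSG00000022817, chromosome 16, 33829665 to 33949338). It held 110, 79.1, 92.2 and 96.7 TPM in trex and 64.7, 68.1, 70.0 and 69.6 TPM in wt, without overlap. The ratio of means was 1.39 and the log2 difference 0.46 ± 0.09 (adjusted p = 0.0220 in limma), and its call was lost without trex library 3 or 4 or any wt library (up to 0.0782). Itgb3, the beta chain gene of another alpha v receptor and of the platelet receptor, averaged 6.65 ± 1.92 TPM in trex and 4.91 ± 1.04 TPM in wt (adjusted p = 0.276). Of the transcripts of the beta chains that pair with alpha v alone or with few others (Itgb3, Itgb5, Itgb6 and Itgb8), Itgb8 made up 6.29%, 16.8%, 13.8% and 9.15% in trex and 36.2%, 33.9%, 28.5% and 28.6% in wt. The sum of the 4 genes overlapped between the groups, at 102 to 123 TPM in trex and 104 to 113 TPM in wt. The Itgb5 to Itgb8 ratio was 4.62 to 14.2 in trex and 1.64 to 2.37 in wt.

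Itgb1, the common partner of most alpha chains, was the most abundant of the 35 genes and made up 79.9% to 82.7% of integrin beta chain TPM in trex and 78.1% to 80.6% in wt. It stood at 597, 411, 507 and 509 TPM in trex, against 393, 414, 407 and 441 TPM in wt. The groups overlapped through trex library 2, and the adjusted p was 0.117, or 0.0146 without that library. Itgb4, the partner of the Itga6 chain in hemidesmosomes, was below the filter, with 0.860 to 1.66 TPM in trex and 0.503 to 0.761 TPM in wt. These values did not overlap between the groups and rest on 32 to 67 reads in trex and 20 to 30 in wt.

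**Figure D3:**
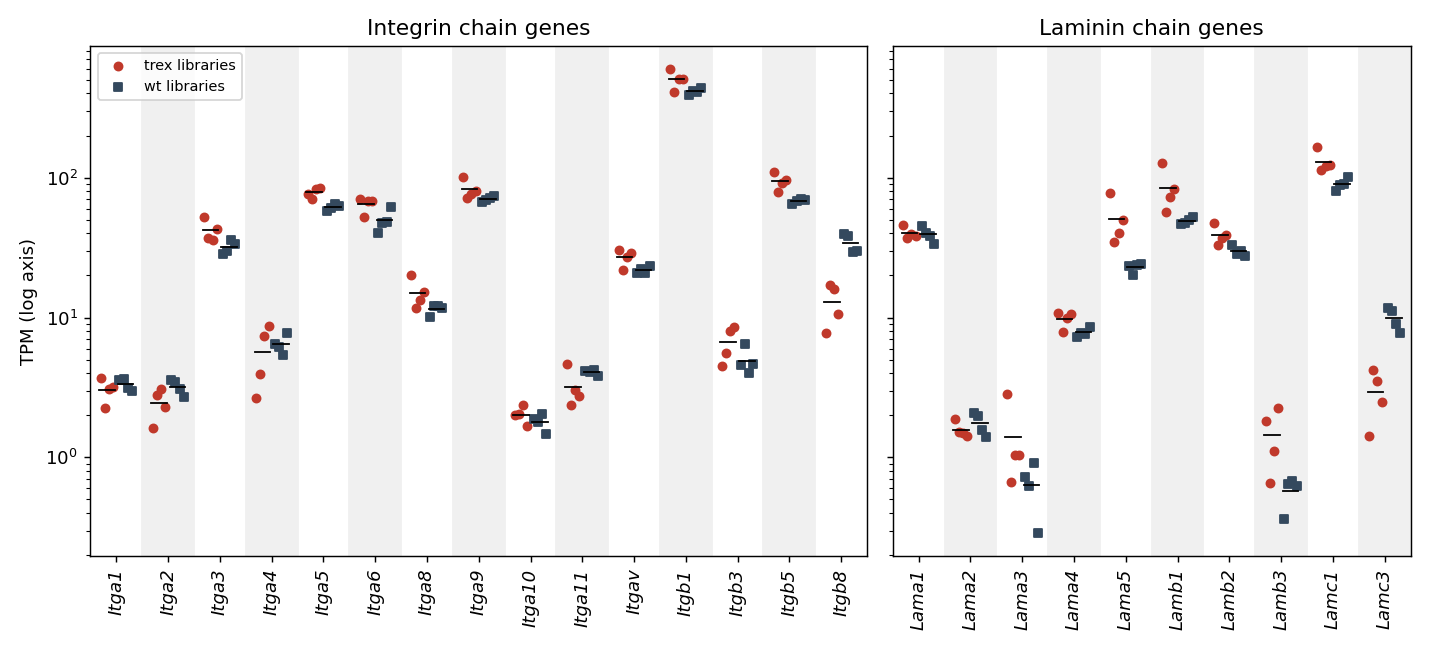
TPM on a log axis of 25 tested chain genes, integrins on the left and laminins on the right; each point is 1 library, red circles are trex, dark squares are wt and the short lines are group means. Itgb1 is at the top with 393 to 597 TPM, and the groups of Itgb8 and Lamc3 are separated with trex below wt, while those of Lama5, Lamb1, Lamc1, Itga5 and Itgb5 are separated with trex above wt.

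Of 11 tested integrin alpha chain genes, 1 was called, or 9.09%, near the 8.71% of all tested genes. Itga5 encodes the alpha chain of the main fibronectin receptor, which neural crest and mesoderm cells use (ENSMUSG00000000555, chromosome 15, 103344286 to 103366763). It stood at 76.4, 70.2, 82.5 and 84.7 TPM in the mutants and 57.6, 60.7, 64.4 and 62.6 TPM in the wild types. All mutants were above all wild types, and trex library 4, not library 1, was the highest. The log2 difference was 0.35 ± 0.07 (adjusted p = 0.0213 in limma), and leaving out trex library 3 or 4 or any wt library ended the call (up to 0.0806).

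The laminin-binding alpha chains overlapped between the groups. Itga3 stood at 52.4, 36.8, 35.8 and 42.9 TPM in the mutants and 28.6, 29.8, 36.1 and 33.7 TPM in the wild types (adjusted p = 0.102). Itga6, which pairs with Itgb1 or Itgb4 chains, stood at 70.5, 52.4, 67.7 and 68.3 TPM in the mutants and 40.4, 47.7, 48.5 and 61.9 TPM in the wild types (adjusted p = 0.110, and 0.0364 without trex library 2). In each gene 1 mutant, library 3 for Itga3 and library 2 for Itga6, lay below the highest wild type. Itga7, the laminin-binding chain gene of muscle, was below the filter at 0.301 to 0.442 TPM in trex and 0.148 to 0.480 TPM in wt.

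Other alpha chains of matrix receptors were not called either. Itga9, which binds tenascin and other ligands and was the most abundant alpha chain gene, averaged 82.3 ± 12.99 TPM in trex and 70.5 ± 3.20 TPM in wt (adjusted p = 0.198). Itgav averaged 26.9 ± 3.64 TPM in trex and 21.9 ± 1.19 TPM in wt (adjusted p = 0.110, and 0.0130 without trex library 2). Itga8, the nephronectin receptor chain gene, averaged 15.1 ± 3.72 TPM in trex and 11.5 ± 0.98 TPM in wt (adjusted p = 0.181). Itga4, a fibronectin and VCAM receptor chain gene, spread widely in the mutants at 2.68, 3.92, 7.35 and 8.74 TPM, against 6.48, 6.14, 5.39 and 7.81 TPM in wt, and its log2 difference of -0.26 had a 95% interval from -0.93 to 0.41. The chain genes of the collagen receptors, Itga1, Itga2, Itga10 and Itga11, had means of 2.02 to 3.21 TPM in trex and 1.798 to 4.08 TPM in wt with adjusted p between 0.250 and 0.648. Itga11 stood at 4.66 TPM in trex library 1 and 2.37 to 3.05 TPM in the other mutants, against 3.82 to 4.24 TPM in wt, and was called lower without trex library 1 (adjusted p = 0.0391). A predicted gene, averaging 0.0844 TPM in the mutants and 0.0364 TPM in the wild types, shares 33.5% of the exonic bases of Itga10, so the level of Itga10 is uncertain.

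The leukocyte integrin genes Itgal, Itgam, Itgax, Itgae, Itgb2 and Itgb7 were all below the filter. Their levels summed to 1.45 to 2.23 TPM in trex and 1.35 to 1.94 TPM in wt. Itgam had at most 2 reads and Itgax at most 1 read in any library. A predicted gene on the same strand, with a mean of 0 TPM in both groups, shares 68.7% of the exonic bases of Itgam. The level of Itgam is therefore uncertain. The 13 macrophage and leukocyte markers summed to 13.6 to 23.1 TPM in trex and 16.9 to 27.2 TPM in wt. Ptprc averaged 0.0464 TPM in trex and 0.0752 TPM in wt, and 4 of the 13 reached the filter. Of these, and chosen after their values were seen, Cd68 averaged 9.85 ± 2.46 TPM in trex and 9.74 ± 2.30 TPM in wt, and Mrc1 2.40 ± 0.64 TPM in trex and 1.35 ± 0.16 TPM in wt without overlap (adjusted p = 0.0877). Itga2b, outside the 35 genes, averaged 3.52 ± 0.70 TPM in trex and 2.51 ± 0.50 TPM in wt (adjusted p = 0.174). Itgb6, an epithelial partner of alpha v, was also below the filter at 0.147 to 0.512 TPM in trex and 0.145 to 0.387 TPM in wt.

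The mutant libraries differed from each other across these genes. Of the 19 tested chain genes with a higher trex mean, trex library 1 was the highest mutant for 15 and trex library 2 the lowest for 16. The median distance of these 19 genes from the wt mean, on the log2(TPM + 1) scale, was 0.66, 0.13, 0.33 and 0.42 in trex libraries 1 to 4. For the 7 tested genes with a lower trex mean it was -0.68, -0.59, -0.14 and -0.35, with trex library 1 the highest mutant for 3 and the lowest for 4. The order thus differed from that of the 19, while for the called genes Lamc3 and Itgb8 alone the median was -2.08, -0.996, -1.14 and -1.61. Of the 11 genes of the low oxygen list 7 rose and 0 fell, where 4.94% and 3.77% of all tested genes did. The 11 genes summed to 10678, 4708, 6606 and 8346 TPM in trex libraries 1 to 4, against 3280 to 3522 TPM in wt. The mitochondrial share of TPM was 2.61%, 7.14%, 4.82% and 4.50% in trex and 6.73% to 7.95% in wt. Their part in the result was not tested. The median coefficient of variation of the 26 genes was 18.1% in trex and 9.67% in wt, and over all tested genes it was 13.7% in trex and 7.11% in wt.

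**Figure D4:**
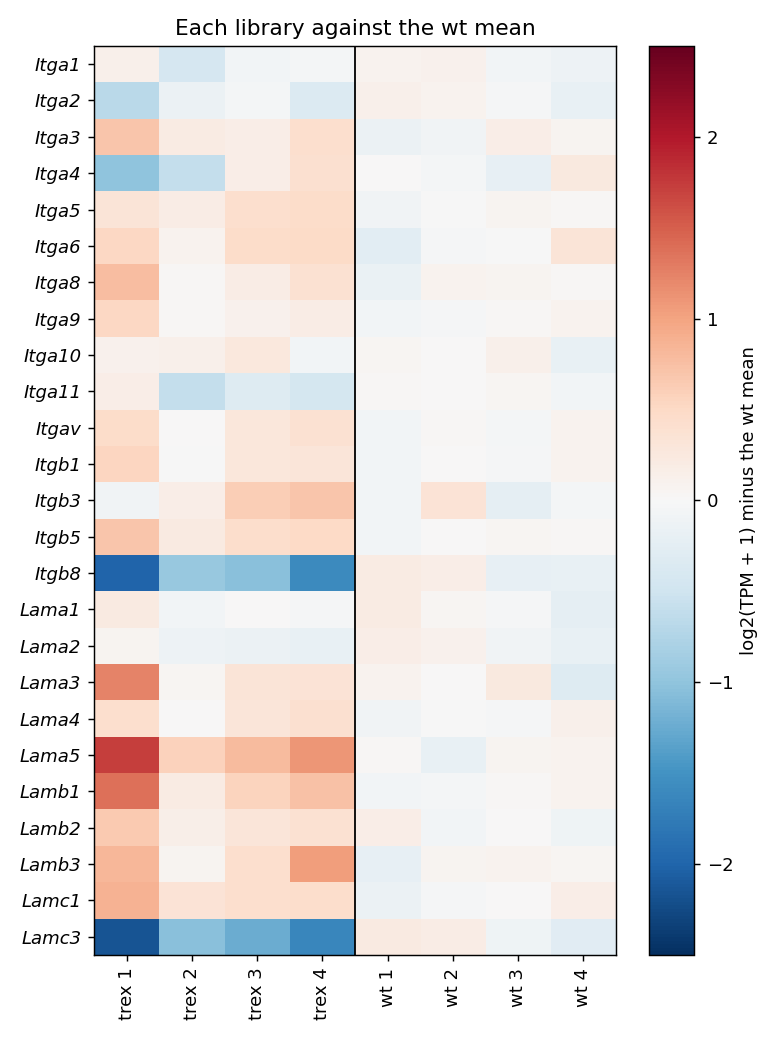
Each library's log2(TPM + 1) minus the wt mean for 25 tested chain genes (rows), with trex libraries 1 to 4 left of the line and wt libraries 1 to 4 right of it; red is above and blue below the wt mean. Trex library 1 has the strongest colours, with a median of 0.66 over the 19 genes with a higher trex mean, and trex library 2 the palest, with 0.13, while Lamc3 and Itgb8 are blue in all 4 mutants.

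Most neuron markers fell in trex, as did Lamc3 and Itgb8. Of all tested genes, 3.77% were called lower and 4.94% higher. Of 10 neuron markers 8 fell, and their summed level was 220 to 340 TPM in trex and 522 to 820 TPM in wt. Trex library 1 was the lowest mutant for that sum, for Lamc3 and for Itgb8. Of 10 neural tube progenitor markers 4 fell, with sums of 609, 710, 613 and 535 TPM in trex libraries 1 to 4 and of 822 to 965 TPM in wt. The lowest mutant depended on the summary. It was trex library 4 for the sum and trex library 1 for the mean log2(TPM + 1) of these markers. That mean was 4.94, 5.52, 5.30 and 5.12 in trex libraries 1 to 4 and 5.80 to 6.04 in wt. Among wild types, Lamc3 and Itgb8 were higher in libraries 1 and 2 than in 3 and 4, and so were the neuron sums, at 820, 815, 554 and 522 TPM. The part of the neural tissue share in these falls was not tested.

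Some epithelial and endothelial markers rose in trex; of all tested genes, 4.94% were called higher and 3.77% lower. Of 10 tested epithelial markers 2 rose, among them Krt8 (149 ± 45.0 TPM in trex, 67.3 ± 11.5 TPM in wt), and the summed level of the list was 465 to 904 TPM in trex and 399 to 485 TPM in wt. Of 11 endothelial markers 2 rose, and the sum was 581 to 678 TPM in trex and 520 to 553 TPM in wt. Somite markers held 2 rises among 9 (sums of 552 to 779 TPM in trex and 503 to 576 TPM in wt), and neural crest markers 1 rise and 1 fall among 10 (336 to 469 TPM in trex and 331 to 353 TPM in wt). Of 8 tested skeletal muscle markers 3 fell, and 4 had all trex libraries below all wt libraries, as did 8.95% of all tested genes. The sums of the list overlapped, at 148 to 1306 TPM in trex and 398 to 1491 TPM in wt. Its mean log2(TPM + 1) did not, at 2.55 to 3.99 in trex and 4.24 to 4.78 in wt. No call was made by limma among tested markers of macrophages (4), megakaryocytes (4), erythroid cells (9), cardiomyocytes (10) and liver or yolk sac (8), with 1, 1, 0, 0 and 0 at an unadjusted p below 0.05. No list marker was at 0 in all 8 libraries. The part of these cell types in the results was not tested.

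Partners of laminins and integrins, listed by role, held 16 genes called higher and 2 called lower. Called higher were 23.5% of tested basement membrane genes, 24.1% of adhesion complex genes, 23.5% of integrin ligand genes and 5.26% of other laminin receptor genes. Called lower were 5.88%, 0%, 0% and 5.26% of these lists. Of all tested genes 4.94% were called higher and 3.77% lower, and the laminin receptor list lay near these shares. In the basement membrane list 4 of 17 tested genes rose and 1 fell, with a median log2 difference of 0.44 against 0.04 over all tested genes. Hspg2, which encodes the basement membrane proteoglycan perlecan, averaged 69.2 ± 14.9 TPM in trex and 41.9 ± 3.05 TPM in wt (adjusted p = 0.0227). Frem1, a protein of the epithelial basement membrane, averaged 22.8 ± 2.35 TPM in trex and 15.7 ± 0.61 TPM in wt (adjusted p = 0.0122), and the matrix-associated calcium-binding protein gene Smoc2 18.6 ± 7.52 TPM in trex and 7.56 ± 1.66 TPM in wt (adjusted p = 0.0358). Ntn4, a netrin that binds laminin gamma chains, fell to 4.09 ± 0.74 TPM in trex, against 9.02 ± 1.93 TPM in wt (adjusted p = 0.0148).

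Among 29 tested genes of the cytoplasmic adhesion complex, which links integrins to actin, 7 rose and 0 fell, with a median log2 difference of 0.15. An unadjusted p below 0.05 in limma was found for 16 of them, or 55.2%, against 29% of all tested genes. The groups did not overlap for 8 of the 29 with trex above wt and for 2 with trex below wt. Of all tested genes, 12.9% and 8.95% did so. Flna, an actin cross-linker that binds integrin tails, averaged 464 ± 37.5 TPM in trex and 353 ± 3.60 TPM in wt (adjusted p = 0.0121). The adaptor gene Pxn averaged 47.7 ± 3.69 TPM in trex and 37.6 ± 2.11 TPM in wt (adjusted p = 0.0248). Actn4, an actin bundling protein gene, and Tns3, a tensin gene, rose 1.17-fold and 1.35-fold (adjusted p = 0.0268 and 0.0313). Of 17 tested integrin ligand genes other than laminins 4 rose and 0 fell, with a median of 0.22. Those 4, or 23.5%, were the ones at an unadjusted p below 0.05 in limma, a lower share than the 29% of all tested genes. In that list 4 genes had trex above wt without overlap and 1 had trex below wt without overlap. The genes that rose were Fn1, the fibronectin gene (294.6 ± 67.7 TPM in trex and 168 ± 10.2 TPM in wt), the tenascin gene Tnc (50.2 ± 13.2 TPM in trex and 27.7 ± 5.93 TPM in wt), Icam1 (7.42 ± 0.89 TPM in trex and 4.61 ± 0.66 TPM in wt) and Thbs1 (32.5 ± 3.66 TPM in trex and 24.1 ± 3.04 TPM in wt), with adjusted p of 0.0201, 0.0442, 0.0283 and, for Thbs1, just under 0.05. Of 19 tested genes of other laminin receptors, 1 rose, Utrn, which links dystroglycan to actin (1.48-fold, adjusted p = 0.0308), and 1 fell, the syntrophin gene Sntb1, to 3.78 ± 0.29 TPM in trex against 5.57 ± 0.13 TPM in wt (adjusted p = 0.0275). Each of these 14 named partner calls was lost without wt library 2, where the adjusted p of Flna, Frem1 and Ntn4 was 0.0514, 0.0550 and 0.0557. These 3 stayed called without any other single library. For the other 11 the adjusted p reached up to 0.124 without 1 library.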

How the data were processed

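RNA-seq values of 8 libraries, 4 trex and 4 wt, were used in TPM as the authors deposited them, 1 column per library summing to 1000000. Libraries were poly-A selected and strand-specific, per the labels' protocols, and the submitters' processing notes name CASAVA 1.8.2, STAR and the build mm10. Which counter, strand setting, annotation and gene lengths gave the TPM is not given in the sources used here. Symbols, coordinates and exonic lengths came from GENCODE M21, which matched 55240 of 55421 gene identifiers. TPM times exonic length gave whole multiples of 1 read, within 0.001 read, for 98.7% to 98.9% of values up to 200 reads; these reads state depth and feed 1 alternative.

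Genes with a mean TPM of at least 1 were tested with limma 3.58.1 in R 4.3.3 (lmFit, eBayes with a trend) on log2(TPM + 1). The model held genotype alone, tests were two-sided, and p-values were adjusted by Benjamini-Hochberg over 15717 genes. Differences on this scale understate changes of weakly expressed genes. The step was tested on simulated data. Chain genes are named except 1 tested gene, which is not reported here but stays in the counts; of each partner list, up to 4 called genes with the smallest p are named, and of each marker list the first 3 genes may be. The members and lists were chosen with earlier results of these data known. Alternatives covered pseudocount, filter, scaling, variance model, weights, replicate number, sex, recovered reads and each library left out. Python 3.11.15 with scipy 1.17.1 made the exact permutation tests.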

Additional observations from a re-analysis of the deposited data

Results flagged for a closer look

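Of 52 sets of 4 values, 1 for each tested chain gene and group, 3 were flagged by Dixon's test because 1 library lay far from the rest; about 1 set in 20 is flagged by chance. Lamc1 stood at 164.8 TPM in trex library 1, where the other mutants held 113.6 to 122.2 TPM. Itga6 stood at 52.37 TPM in trex library 2, where the others held 67.66 to 70.52 TPM. Lamb3 stood at 0.3618 TPM in wt library 1, where the others held 0.6246 to 0.6735 TPM.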

How the results depend on the processing

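The count of all genes called was 1369. It was 694 with no filter, 5524 with array weights, 687 with the replicate block, 39 with sex as a covariate, 8 in the libraries low in Y-linked transcripts, and 201 to 2911 leaving out 1 library. The 5 chain genes called higher were 2 with no filter, 13 with array weights, 2 with the replicate block, 0 with sex as a covariate, 0 in the libraries low in Y-linked transcripts, and 0 to 12 leaving out 1 library. The 2 called lower were 0 with sex as a covariate, 0 in the libraries low in Y-linked transcripts, and 0 to 3 leaving out 1 library. Where limma called 0 chain genes, 10 (sex as a covariate), 9 (low in Y-linked transcripts) and 14 (without wt library 2) had an unadjusted p below 0.05, as did 16.8%, 13.5% and 21.1% of all tested genes. With fewer libraries or a further term the fit has fewer residual degrees of freedom; beyond that the cause was not tested. Lama1, not called, changed sign after quantile normalization (-0.0091), median-of-ratios rescaling (-0.0024), TPM recomputed after dropping globin, sex chromosome and mitochondrial genes (-0.0074), voom on recovered reads (-0.0015), and without trex library 1 (-0.027) or wt library 4 (-0.038; leaving out 1 library gave -0.038 to 0.10), and Itga4 with array weights (0.16). Of 564 values for single chain genes under the alternatives, 487 kept direction and side of the threshold, 52 lost a call, 18 gained one and 7 changed sign. These values count both fits for Y-linked transcripts, whose estimates are the same by construction. The replicate numbers did not pair the libraries, with correlations of same-numbered deviations of 0.162, -0.023, -0.004 and 0.252; libraries trex 1 and 4 correlated best with the wt library of their own number, and 2 and 3 did not. At this depth genes under about 1 TPM rest on few reads (13 to 26 per wt library for Lamb3, at 0.362 to 0.674 TPM).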
